A study of Mus musculus with 4 samples.

Results

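Glucocorticoid-responsive genes were examined in undifferentiated mouse fibroblast lines with an altered or a normal form of the corepressor SMRT. The set has 9 members: 8 known targets of the glucocorticoid receptor (Tsc22d3, Sgk1, Fkbp5, Zbtb16, Klf9, Dusp1, Mt1 and Mt2) and Hsd11b1, the enzyme that makes the active hormone inside cells. They are 9 of 18193 genes named on the array and were measured by 23 of 34945 probe sets with 1 gene symbol. Where a gene had several probe sets, the one of highest mean signal over the 4 arrays stood for it. All 9 main probe sets passed the filter on signal, a mean above 35.1, the median of all values. Hsd11b1 and Zbtb16 passed it through the SMRTmRID arrays, since their wild-type means lay below 35.1.

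The groups were SMRTmRID 3T3-MEFs, on 2 arrays, and wild-type 3T3-MEFs, on 2 arrays. 3T3-MEFs are mouse embryonic fibroblasts carried by serial passage into a permanent line, and both lines were taken at confluence, before differentiation. SMRTmRID cells came from mice mutant in the receptor interaction domains, the parts of SMRT through which nuclear receptors bind it. The labels give total RNA, name no glucocorticoid or other agent for either genotype, and do not say how many lines or embryos stand behind a genotype. They call the arrays of a genotype technical replicates, so the p-values below measure the spread between such arrays and not that between lines or cultures.

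Glucocorticoids enter the cell and bind the glucocorticoid receptor, which waits in the cytoplasm in a complex with HSP90 and its cochaperones. The bound receptor moves to the nucleus, where it switches on genes at paired hexamer elements and lowers many inflammatory genes by acting on NF-kB and AP-1. In fibroblasts and preadipocytes these hormones restrain inflammation and, in culture, are part of the usual mixture that starts adipocyte differentiation. SMRT is a corepressor best known for silencing targets of receptors without hormone, and it can bind the glucocorticoid receptor when an antagonist occupies it.

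The arrays differed between the genotypes over most of the transcriptome, which is the background for every count below. Of 11057 genes tested, 65.2% were called (limma, Benjamini-Hochberg adjusted p under 0.05), 30.3% higher and 35% lower in SMRTmRID, and in 81.5% the signals of SMRTmRID and wild-type arrays did not overlap. Across these genes the arrays correlated at 0.991 within each genotype and at 0.860 to 0.861 between genotypes. The 10 fibroblast markers summed to 92370.2 and 96859.9 in SMRTmRID and to 70198 and 72011 in wild-type. Of the 10, 6 were called higher and 3 lower, with Vim and Fn1 among the lower, where 30.3% and 35% of all genes were. Without the filter the counts were 5 and 2, where 17.8% and 19.8% of all genes were called. Collagen and vimentin genes were bright in both. But Thy1 had signals of 3172 and 3184 in SMRTmRID against 20.6 and 6.57 in wild-type, and passed the filter through the SMRTmRID arrays. Dcn had 8878 and 8777 against 60.9 and 63.7. Named markers of adipocytes stayed at or below 41.4 on every array, those of muscle and neural cells at or below 61.9 and those of epithelial and endothelial cells at or below 187, and no marker was listed at 0. Apart from sums and upper limits over marker genes, signals of one gene are compared between genotypes only, and not with the signal of another gene. Lower RNA per cell and fewer expressing cells cannot be told apart in such bulk RNA.

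The promoters of members are shown first. RefSeq windows of 250 bases before the start site (GRCm38.p6) were found for 8 members, 15 windows in all, and none for Zbtb16. They were searched on both strands for the full glucocorticoid response element (the hexamer AGAACA, any 3 bases, then its reverse complement TGTTCT), for the single hexamer AGAACA, for the metal response core TGCACNC or TGCGCNC and for the cyclic AMP element TGACGTCA. The single hexamer is found within every full element. The full element stood in 3 of 32851 windows of all genes, or 0.00913%, and 1 of them belongs to Sgk1 (chr10:21993640-21993889, plus strand), the 5th of its 6 start sites in genome order. The match began 189 bases before the start site. It is shown in capitals.
Sgk1: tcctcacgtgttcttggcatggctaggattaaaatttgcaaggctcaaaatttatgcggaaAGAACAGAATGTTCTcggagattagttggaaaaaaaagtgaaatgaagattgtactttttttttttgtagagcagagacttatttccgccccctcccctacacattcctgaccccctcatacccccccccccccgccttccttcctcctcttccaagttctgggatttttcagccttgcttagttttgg

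Dusp1 (chr17:26508473-26508722, minus strand) held the cyclic AMP element, which 1.55% of windows hold, 143 bases before its start site. Capitals mark it.
Dusp1: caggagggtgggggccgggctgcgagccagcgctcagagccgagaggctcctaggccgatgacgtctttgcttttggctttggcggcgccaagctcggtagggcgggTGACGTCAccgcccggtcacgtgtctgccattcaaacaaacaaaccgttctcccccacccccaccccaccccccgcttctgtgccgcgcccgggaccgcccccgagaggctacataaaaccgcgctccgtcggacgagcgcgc

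The windows of the neighbouring genes Mt2 (chr8:94172368-94172617, plus strand) and Mt1 (chr8:94178839-94179088, plus strand) held 3 and 1 copies of the metal response core. These counts are of the windows and not of whole promoters. At least 1 copy was in 21.4% of all windows and at least 2 copies in 5.17%. Capitals mark the cores on either strand.
Mt2: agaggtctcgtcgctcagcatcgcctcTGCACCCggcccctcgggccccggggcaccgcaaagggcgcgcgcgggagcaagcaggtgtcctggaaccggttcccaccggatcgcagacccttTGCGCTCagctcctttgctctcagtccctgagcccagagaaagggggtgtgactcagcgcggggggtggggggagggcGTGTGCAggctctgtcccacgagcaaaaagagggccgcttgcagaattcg
Mt1: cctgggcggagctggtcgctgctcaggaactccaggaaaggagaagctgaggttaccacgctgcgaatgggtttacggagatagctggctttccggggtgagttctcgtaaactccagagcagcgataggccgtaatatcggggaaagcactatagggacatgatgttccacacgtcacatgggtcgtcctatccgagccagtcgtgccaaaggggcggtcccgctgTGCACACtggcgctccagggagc

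Among the members that rose, the windows of Klf9 and Fkbp5 held none of these letters and that of Hsd11b1 held 1 metal response core. The single hexamer was in 16.1% of all windows, and outside the Sgk1 window shown it was found in 2 other windows of Sgk1 and in 1 of 3 of Tsc22d3. A match is a description of the letters, and elements beyond 250 bases or after the start site were not looked for.

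The members split. Of 9, 3 rose in SMRTmRID (Hsd11b1, Klf9 and Fkbp5), 5 fell (Sgk1, Tsc22d3, Dusp1, Mt2 and Mt1) and Zbtb16 did not pass, so 8 were called where 65.2% of all genes were. The median log2 difference of the members was -0.20, against -0.05 over all genes tested. A log2 difference below is the SMRTmRID mean of log2(signal + 16) less the wild-type mean, and the added 16 makes changes between low signals look smaller than they are. The plots of signal by array and of the differences show the split.

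**Figure D1:**
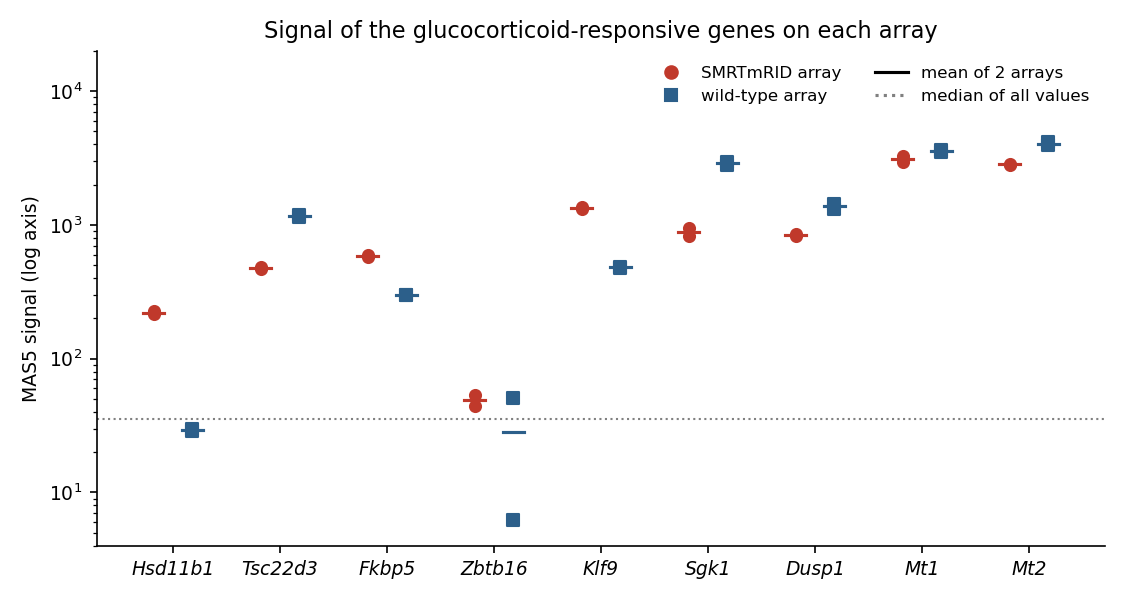
MAS5 signal (log axis) of the main probe set of each of the 9 genes on the 2 SMRTmRID arrays (red circles, left) and the 2 wild-type arrays (blue squares, right), with bars at the means and a dotted line at 35.1, the median of all values. The arrays of the genotypes are apart for every gene except Zbtb16, whose wild-type arrays stand at 50.8 and 6.19. They are apart for 81.5% of all genes tested.

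**Figure D2:**
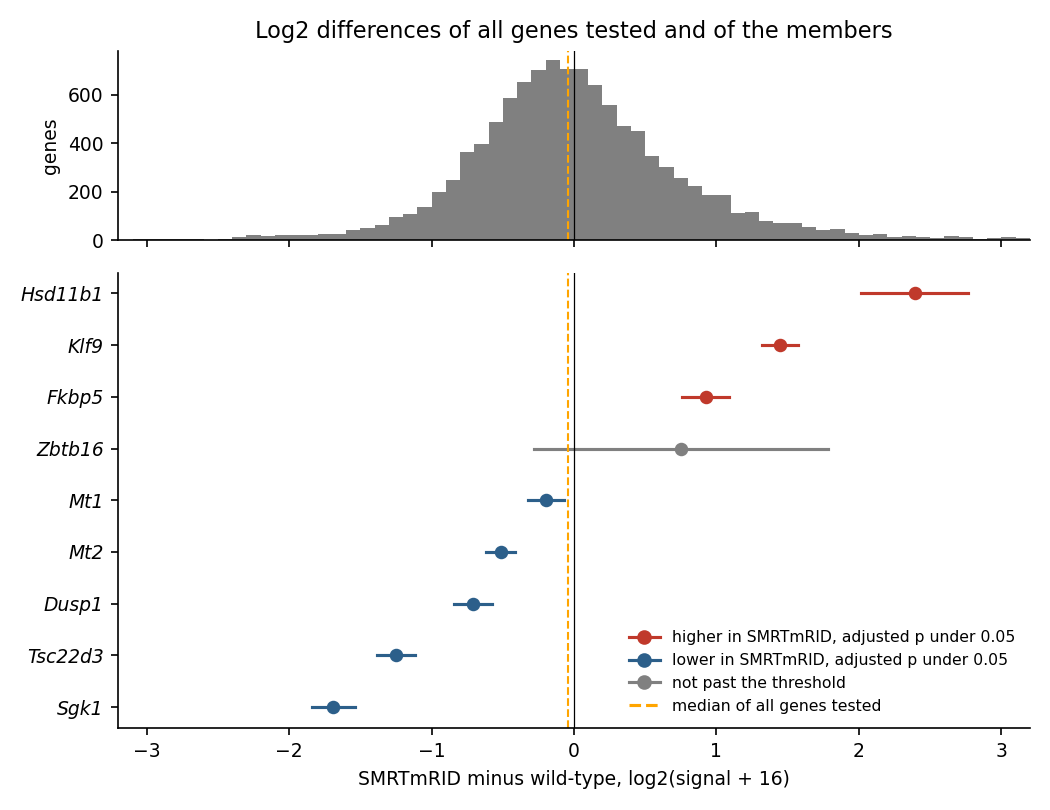
Above, the number of genes tested by log2 difference in bins of 0.1 (differences beyond 3.2 either way are not drawn). Below, the log2 difference of each member with its 95% confidence interval from limma; Hsd11b1 at 2.39 and Sgk1 at -1.69 are the ends of the range.

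Hsd11b1 encodes 11beta-hydroxysteroid dehydrogenase type 1, which regenerates active glucocorticoid from its inert keto form in the endoplasmic reticulum. Its signal was 215 and 228 on the SMRTmRID arrays, against 29.5 and 28.8 on the wild-type arrays. Both SMRTmRID arrays were thus high and both wild-type arrays lay under the median of all values. The log2 difference was 2.39 ± 0.17 (limma, SE; adjusted p = 1.52e-06). It was 2.88 with a pseudocount of 1 and 1.61 with 64. Its size was above that of 97.6% of genes tested, and of 97.3% and 96.9% with those pseudocounts, among genes of which it is one only through its SMRTmRID signals.

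H6pd, which supplies the cofactor for this reaction, had signals of 735 and 737 in SMRTmRID against 621 and 715 in wild-type, a log2 difference of 0.14 that did not pass (adjusted p = 0.127 by limma). Hsd11b2, the enzyme that inactivates the hormone, was not tested, with signals of 39.7 and 21.8 in SMRTmRID and 7.33 and 32.7 in wild-type. Of these 3 enzyme genes Hsd11b1 and H6pd were tested, Hsd11b1 only through its SMRTmRID arrays, and Hsd11b1 was called. Without wild-type replicate 2 the log2 difference of H6pd was 0.24. Nr3c1, the glucocorticoid receptor gene itself, had 724 and 766 in SMRTmRID against 326 and 278 in wild-type (log2 difference 1.26 ± 0.09 SE, adjusted p = 1.40e-06 by limma). The related steroid receptor genes Nr3c2 and Pgr had signals of at most 25.8 on all 4 arrays and were not tested.

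Fkbp5 encodes FKBP51, an HSP90 cochaperone that lowers the receptor's affinity for hormone and is itself induced by the receptor. It had signals of 575 and 594 in SMRTmRID and 301 and 300.1 in wild-type. The genotypes did not overlap, and the log2 difference was 0.92 ± 0.07 (limma, SE; adjusted p = 3.35e-06). A dimmer probe set, 1448231_at, gave 364 and 349 against 72.8 and 122, a log2 difference of 1.75 ± 0.19 (SE). The dimmest, 1447736_at, stayed at or below 4.59 and was not tested.

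Fkbp4 encodes FKBP52, the cochaperone that takes the place of FKBP51 on activated receptor complexes. It went the other way from Fkbp5, with signals of 681 and 673 in SMRTmRID against 1196 and 1229 in wild-type (log2 difference -0.83 ± 0.05 SE, adjusted p = 1.14e-06 by limma). Of 13 tested genes among 22 receptor, chaperone and hormone enzyme genes, 6 fell, 5 rose and 2 missed the threshold. Of all genes tested 35% fell and 30.3% rose. In the list 4 others were below the filter and 5 had no named probe set. The fallers included Ppp5c, an HSP90-bound phosphatase, at -1.05, and the cochaperone genes Dnajb1 at -0.89 and Bag1 at -0.45. Dnaja1 rose by 0.49 and Hsp90aa1, the inducible HSP90 gene, by 0.38; Hsp90aa1 did not pass after median centring (adjusted p = 0.0681 by limma). The list median was 0.10, and it was -0.02 after quantile normalization and -0.06 after median centring.

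Tsc22d3 encodes GILZ, a leucine zipper protein that mediates part of the anti-inflammatory action of glucocorticoids. Its main probe set, 1420772_a_at, had signals of 471 and 482 in SMRTmRID and 1135 and 1174 in wild-type. The SMRTmRID arrays were 2.42-fold lower, or -1.25 ± 0.06 on the log2 scale (limma, SE; adjusted p = 1.29e-07). A bright companion probe set, 1425281_a_at, gave 378 and 391 against 908 and 884, a log2 difference of -1.19. The 3rd probe set, 1425557_x_at, whose suffix marks probes that can bind other transcripts, overlapped between the genotypes (77.6 and 142.7 in SMRTmRID, 161 and 111 in wild-type) and was not called. With the mean of all 4 probe sets the difference of the gene was -0.75, still past the threshold.

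Dusp1 encodes a phosphatase that switches off p38 and JNK, and glucocorticoids and stress signals both induce it. Signals were 819 and 854 in SMRTmRID and 1431 and 1324 in wild-type. Both SMRTmRID arrays were below both wild-type arrays, with a difference of -0.71 ± 0.06 on the log2 scale (limma, SE; adjusted p = 5.16e-06).

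Sgk1 encodes a kinase of ion channel and survival signalling that the receptor induces within a short time. It had the greatest fall among the members, with signals of 826 and 944 in SMRTmRID against 2823 and 2950.2 in wild-type. The SMRTmRID mean was 3.26-fold lower, or -1.69 ± 0.07 on the log2 scale (limma, SE; adjusted p = 4.08e-08). This is the gene with a promoter window that held the full receptor element, and a link to its fall was not tested. Ndrg1, which encodes a substrate of the kinase, had a log2 difference of -0.89, and Nedd4l, a ubiquitin ligase that the kinase restrains, of -0.23. The sister kinase gene Sgk3 had signals of 56.8 and 41.0 against 97.2 and 97.2, a log2 difference of -0.81. Sgk2 was below the filter, and all 4 tested genes of this small group were called lower, where 35% of all genes tested were. Without the filter 3 of its 5 named genes were called lower, where 19.8% of all genes were. Nedd4l passed narrowly (adjusted p = 0.0389 by limma): it was not called without the filter (0.0519) or without any single array (0.0805 to 0.118), and its difference was 0.07 with the mean of its probe sets (0.742).

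Klf9 encodes a Kruppel-like transcription factor that both glucocorticoid and thyroid hormone induce. Its main probe set had 1323 and 1353 in SMRTmRID and 484 and 479 in wild-type. The SMRTmRID mean was 2.78-fold higher, or 1.44 ± 0.06 on the log2 scale (limma, SE; adjusted p = 3.94e-08). Klf9 had the most probe sets of any member, 7, and all 6 above the filter were called higher, with log2 differences between 1.09 and 1.69. The 7th, 1452723_at, had signals between 13.4 and 28.8.

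Zbtb16 encodes PLZF, a zinc finger repressor strongly induced by glucocorticoids in many cell types. It was close to the filter in both genotypes, with signals of 44.6 and 53.4 in SMRTmRID and 50.8 and 6.19 in wild-type. The groups overlapped, and the log2 difference of 0.75 ± 0.46 (SE) did not pass (adjusted p = 0.177 by limma; 95% confidence interval -0.28 to 1.78). A single wild-type array decides its value: the difference was 1.55 without wild-type replicate 1 (adjusted p = 0.00439) and -0.04 without wild-type replicate 2 (adjusted p = 0.912). The other probe sets, 1439163_at and 1419874_x_at, had signals of at most 26.9.

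Mt1 and Mt2 encode metallothioneins, small cysteine-rich proteins that bind zinc and copper and are induced by metals and by glucocorticoids. Mt2 had signals of 2823 and 2829 in SMRTmRID against 3957 and 4133 in wild-type. The SMRTmRID mean was 1.43-fold lower, or -0.51 ± 0.05 on the log2 scale (limma, SE; adjusted p = 7.69e-06). For Mt1 the values were closer, 3260.3 and 2948 in SMRTmRID and 3494 and 3630.1 in wild-type. Its arrays did not overlap either, and the log2 difference of -0.20 ± 0.06 (SE) passed narrowly (adjusted p = 0.0115 by limma). Over 13 alternatives the adjusted p ran between 0.00140 and 0.104, and 5 of them lost the call: quantile normalization (0.0719), no variance trend (0.104), the mean of probe sets (0.0596), and leaving out SMRTmRID replicate 2 (0.0741) or wild-type replicate 2 (0.0625). After quantile normalization the difference was -0.10, when the median of all genes was -0.11. The Mt1 probe set, 1422557_s_at, is of a type whose probes can be shared with another transcript, so its signal may include that of other transcripts. The dim probe set 1451612_at of Mt1 had signals between 40.4 and 53.2 and was not called.

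Mt3 had a log2 difference of 0.05 that did not pass (adjusted p = 0.870 by limma), and Mt4 was below the filter. Of 6 other tested genes that respond to metal, 1 rose and 2 fell, where 30.3% of all genes rose and 35% fell. The zinc importer gene Slc39a14 rose by 0.66, while Gclc and Hmox1, which also answer oxidative stress, had log2 differences of -1.13 and -0.78. Slc30a1, a zinc exporter gene, and Mtf1, the metal-sensing factor, did not pass, at 0.22 and -0.10.

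**Figure D3:**
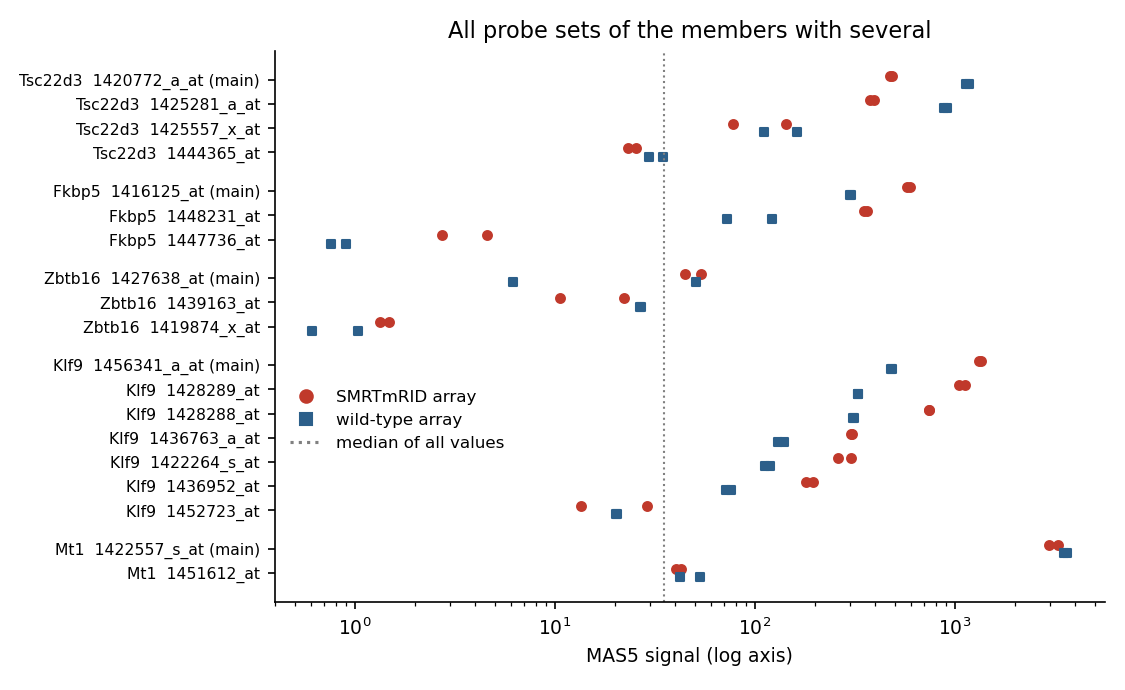
MAS5 signal (log axis) of every probe set of the 5 members that have several, on SMRTmRID arrays (red circles, upper) and wild-type arrays (blue squares, lower); the dotted line is the median of all values, 35.1. The 6 Klf9 probe sets above the line are all higher in SMRTmRID, and the 2 brightest of Tsc22d3 are lower.

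Over all members, 18 of 23 probe sets were above the filter, of which 9 were called higher, 6 lower and 3 not, where 61.1% of all such probe sets were called. No member had probe sets called in opposite directions. For Tsc22d3, Klf9 and Fkbp5 the 2 arrays of a genotype differed by at most 0.0487 on the log2 scale, against a median over all genes of 0.0987 in SMRTmRID and 0.0983 in wild-type. For Sgk1 the gap was 0.190 in SMRTmRID and 0.0631 in wild-type, for Mt1 0.145 and 0.0548, and for Dusp1 0.0593 and 0.111.

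Genes with the pattern most like a member were found by the distance between centred log2 values over the 4 arrays. With 4 arrays in 2 groups this likeness says little beyond a similar difference. Nearest to Hsd11b1 were Ces1g, Csgalnact1 and Mtm1, at distances of 0.0185 to 0.0520, and 26 genes lay within 0.2. Nearest to Sgk1 were Sox11, Btbd6 and Fbn2, with 45 genes within 0.2, and nearest to Klf9 were Tmlhe, Tgfbr1 and Pdk1, with 148. Tsc22d3 was nearest to Pdlim7 and had 196 genes within 0.2, Fkbp5 was nearest to Pank3 and had 459, and Dusp1 was nearest to Rpa2 and had 731. Mt2 was nearest to Zbtb22 and Mt1 to Utp6, with 1218 and 1396. Zbtb16 had no gene within 0.2. No other member was among the 3 genes nearest to a member.

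Within their families the members stood at different places. Among 12 tested FKBP genes 5 rose and 7 fell (4 and 7 after median centring), where 30.3% of all genes rose and 35% fell. Fkbp5 had the greatest rise, beside Fkbp14, a collagen-folding isomerase of the endoplasmic reticulum, at 0.91. With the mean of probe sets Fkbp14 (at 0.50), Fkbp11 and Fkbp1a were not called. Fkbp1b, at -0.35, lost its call without the filter and with the replicate block. Fkbp8 fell by 0.86. In the TSC22 family Tsc22d2 and Tsc22d4 rose by 1.06 and 0.44, while Tsc22d1 had a log2 difference of -0.22. Averaged over its probe sets Tsc22d1 was called higher, at 0.27, and Tsc22d4 was not called, at 0.15. By main probe sets Tsc22d3 had the greatest change of the 4, and with the mean of its probe sets it was at -0.75.

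Of 14 tested Kruppel-like factor genes 4 rose and 5 fell, where 30.3% of all genes rose and 35% fell. The counts were 2 and 7 after median centring and 4 and 7 after quantile normalization. Klf9 had the greatest rise, followed by Klf3 at 0.81, whereas Klf4 and Klf5, factors of early adipogenesis, were at -2.45 and -1.91. Klf13, a close relative of Klf9, was at -0.96. Klf15, another glucocorticoid target, had signals of 3.70 and 35.3 in SMRTmRID against 35.7 and 67.6 in wild-type and did not pass (log2 difference -1.05, adjusted p = 0.0686 by limma). It was called lower after quantile normalization (adjusted p = 0.0449 by limma) and after median centring (adjusted p = 0.000799). Klf15 passed the filter only through the wild-type arrays, since its SMRTmRID mean of 19.5 lay below 35.1. Of 7 tested MAP kinase phosphatase genes 2 rose and 4 fell, where 30.3% of all genes rose and 35% fell. Those that rose were Dusp16, by 0.66, and Dusp6, by 0.65. Dusp8 had signals of 11.3 and 12.8 in SMRTmRID against 164 and 237 in wild-type and Dusp5 13.0 and 20.7 against 146 and 135, both larger falls than that of Dusp1; these 2 passed the filter through the wild-type arrays.

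**Figure D4:**
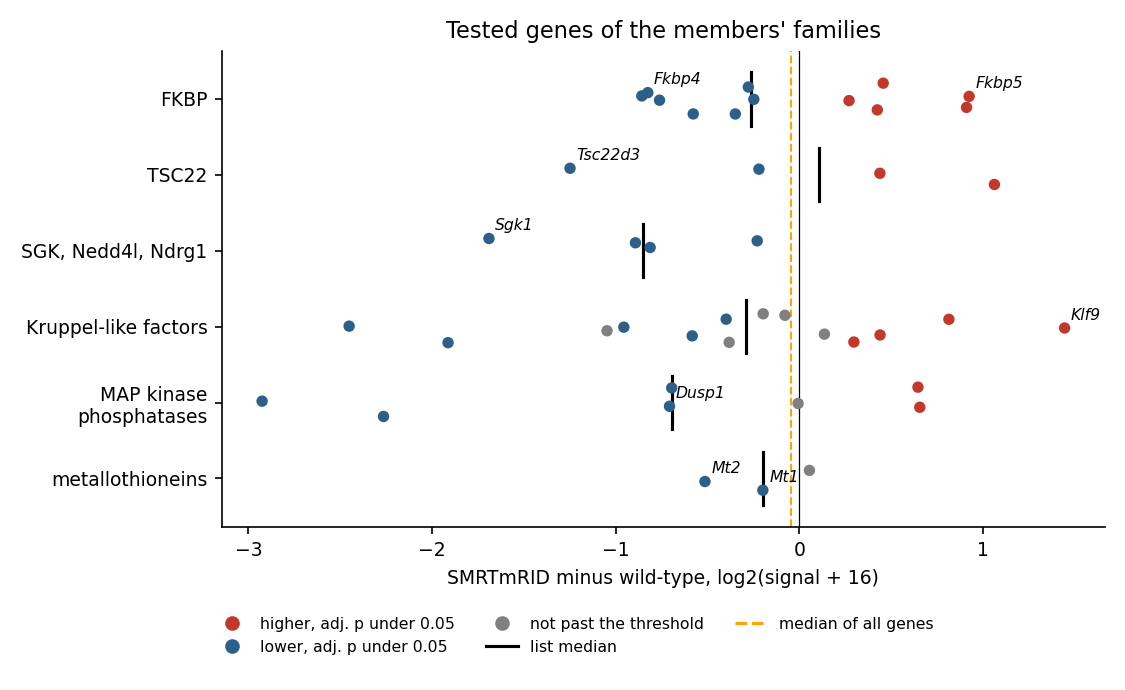
Log2 differences (SMRTmRID minus wild-type) of the tested genes of 6 families, with members and Fkbp4 named, black bars at the medians and the dashed line at the median of all genes tested, -0.05. Klf9 and Fkbp5 are the highest of their families, and Tsc22d3 and Sgk1 the lowest of theirs.

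Other genes that glucocorticoids induce were also split. The list has 43 genes from textbook knowledge, chosen with earlier results of these data known. Of the 38 tested, 19 rose, 13 fell and 6 missed the threshold. The shares were 50% higher and 34.2% lower, against 30.3% and 35% of all genes tested. Without the filter 18 of 43 rose and 13 fell, where 17.8% and 19.8% of all genes did. The list median was 0.22, or 0.15 after quantile normalization and 0.06 after median centring. At least 2-fold higher were 12 of the 38, a fold that 9.69% of all genes reached, and at least 2-fold lower were 4, which 6.79% reached. Those 12 include Crispld2 and Mertk, which passed the filter through the SMRTmRID arrays, since their wild-type means lay below 35.1.

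The greatest rises in that list were in Saa3 at 4.96, Hp at 4.22, Angptl4 at 4.05 and Agt, the angiotensinogen gene, at 2.44. The acute-phase genes Saa3 and Hp are induced by cytokines as well as glucocorticoids. Agt had signals of 794 and 927 in SMRTmRID against 125 and 167 in wild-type. Tgfbr3, the TGF-beta coreceptor gene, was at 2.39 and Fbxo32, a ubiquitin ligase gene of muscle wasting, at 2.13. Crispld2 was called higher with signals of 121 and 137 in SMRTmRID against 9.38 and 14.0 in wild-type, and passed the filter through the SMRTmRID arrays, so the size of its difference depends on the pseudocount. The greatest falls were in the cell cycle inhibitor gene Cdkn1a at -3.79, Gadd45g at -1.79, the thiamine transporter gene Slc19a2 at -1.46 and Cdkn1c at -1.08. Per1, the clock gene that glucocorticoids induce directly, had signals of 204 and 156 in SMRTmRID and 154 and 151 in wild-type, a log2 difference of 0.21 that did not pass (adjusted p = 0.231 by limma). Zfp36, which encodes an mRNA-destabilising anti-inflammatory protein, had a log2 difference of -0.91. Cebpb rose by 0.15, was at -0.02 after median centring, where it did not pass, and lost its call without SMRTmRID replicate 1 (0.10) or wild-type replicate 2 (0.10).

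Of the genes that glucocorticoids repress, more rose than fell. They too were listed with earlier results of these data known. Of 14 tested of 27 listed, 8 were higher, all by at least 2-fold, 3 were lower and 3 missed the threshold, where 30.3% of all genes were higher and 35% lower. Without the filter 11 of 26 were called higher and 2 lower, where 17.8% and 19.8% of all genes were. The median was then 0.41 in place of 1.31. Mmp3 and Mmp13, matrix protease genes, passed the filter through the SMRTmRID arrays and rose by 4.78 and 4.40. The cytokine gene Il6 had 1871 and 1626 in SMRTmRID against 121 and 130 in wild-type, and the adhesion gene Vcam1 2677 and 2658 against 301 and 276. The chemokine genes Ccl2 and Ccl7 rose by 1.87 and 1.46. The 3 that fell were Tslp at -1.07, Lif at -0.92 and Ptgs2, the inducible cyclooxygenase gene, at -0.34. Tslp had signals of 71.8 and 23.1 in SMRTmRID against 96.9 and 118 in wild-type, and was not called without SMRTmRID replicate 2 (-0.48, adjusted p = 0.0802 by limma) or without wild-type replicate 2 (-0.94, adjusted p = 0.0780), nor without the filter (adjusted p = 0.0727). Of 6 blood cell markers, Lyz2 and Cd14 rose by 1.65 and 0.41, Cd14 not after median centring or without SMRTmRID replicate 1 or wild-type replicate 2 (adjusted p between 0.0598 and 0.122 by limma), while Ptprc, the common leukocyte gene, had signals of at most 11.9. These 6 summed to 528 and 549 in SMRTmRID and to between 326 and 525 in wild-type, and their part in the result was not tested.

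**Figure D5:**
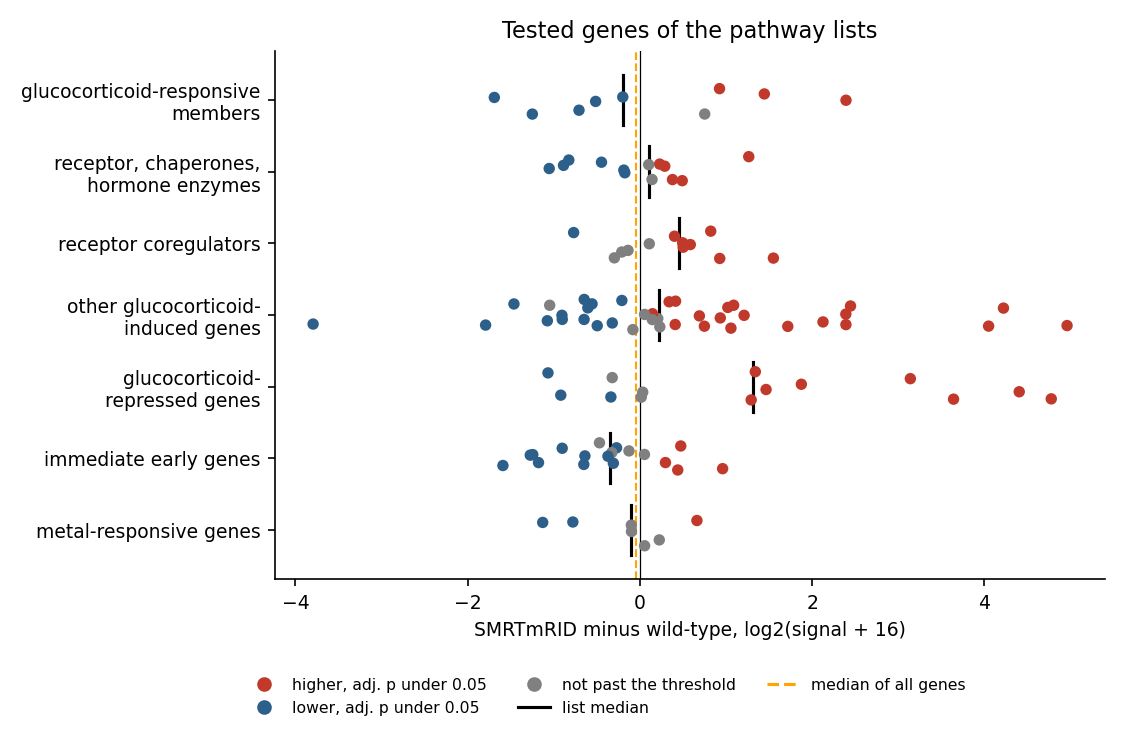
Log2 differences (SMRTmRID minus wild-type) of the tested genes of the members and 6 further lists, with black bars at the list medians and the dashed line at the median of all genes tested, -0.05. The glucocorticoid-repressed genes have a median of 1.31 and the immediate early genes one of -0.35, while the members lie on both sides of 0.

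Dusp1 and Sgk1 are also immediate early genes of serum and MAP kinase signals, so other genes of that kind were counted. Of 18 tested, 10 fell, 4 rose and 4 missed the threshold, where 35% of all genes fell and 30.3% rose. The median difference was -0.35, and any bearing on Dusp1 and Sgk1 was not tested. The growth factor-induced matrix genes Ccn2 and Ccn1 were at -1.59 and -1.24, Ier3 at -1.27 and Btg2 at -1.18. Fos rose by 0.96, Nr4a1 by 0.47, Klf2 by 0.44 and Klf6 by 0.30; after median centring only Fos and Nr4a1 of the 4 passed. Egr1 had a log2 difference of 0.05 that did not pass (adjusted p = 0.408 by limma), and it was called higher after quantile normalization (0.18, adjusted p = 0.0113).

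Of the coregulators that act with the receptor, more rose than fell. Of 12 tested, 7 rose and 1 fell, where 30.3% of all genes rose and 35% fell. The counts were 6 and 3 after quantile normalization and 6 and 4 after median centring. Nrip1 rose by 1.55, Ncoa2, the coactivator gene also known as GRIP1, by 0.93, Tbl1x, of the SMRT complex, by 0.82 and the acetyltransferase gene Ep300 by 0.58. Smarca4, the ATPase gene of a chromatin remodelling complex that the receptor recruits, had a log2 difference of -0.77. The median was 0.45.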

How the data were processed

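Total RNA was measured on 4 biotin-labelled arrays. The deposited values are linear intensities, 1 for each probe set on each array, made by the authors with MAS5, per the submitters' processing notes. The mean without the lowest and highest 2% was 200.0 on every array, and the number of arrays limits the precision. Detection calls were not used here. Of 45101 probe sets, 64 controls were left out, and 34945 of the other 45037 had 1 gene symbol in the platform annotation, 932 several and 9160 none; 34741 gene IDs matched RefSeq (GRCm38.p6).

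Genes were called with limma 3.58.1 in R 4.3.3 (lmFit, eBayes with trend) on log2(signal + 16), two-sided, with Benjamini-Hochberg adjustment over 11057 genes. The fit was tested on simulated data. An exact permutation test of 2 against 2 arrays cannot go below 0.333. Figures used matplotlib 3.10.9. Alternatives covered pseudocount, filter, scaling, variance trend, probe set rule, replicate block and each array left out. Probe sets of members were also fitted among all named probe sets. Members and lists were chosen with earlier results of these data known. Named were all members, up to 4 called genes each way per list, the small families, the receptor and hormone enzyme genes and the 3 nearest genes of a member; other genes were chosen after their values were seen.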

Additional observations from a re-analysis of the deposited data

How the results depend on the processing

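Of the 9 members, Hsd11b1, Klf9, Fkbp5, Sgk1, Tsc22d3, Dusp1 and Mt2 kept their direction and their call under every alternative run (12 for Hsd11b1, which a filter at the 75th percentile of signal removed, and 13 for the others). Their highest adjusted p was 0.00460, for Mt2 (limma). Mt1 lost its call in 5 of 13. Zbtb16, which that filter also removed, ran between -0.043 and 1.55 when single arrays were left out and so reversed once. The median difference of all genes was -0.05, -0.11 after quantile normalization and -0.21 after median centring, and 46.4%, 42.8% and 34.3% of the calls were higher in SMRTmRID. Relative to that median, Mt1 was at -0.15 as reported, 0.0031 after quantile normalization and -0.15 after median centring. Median centring left 2 receptor, chaperone and hormone enzyme genes higher in place of 5, and 2 immediate early genes higher in place of 4. Coregulators called lower numbered 3 after quantile normalization and 4 after median centring, in place of 1. With genes above the 75th percentile alone, 1 glucocorticoid-repressed gene was lower in place of 3 and 2 immediate early genes were higher in place of 4, since fewer genes were tested. Replicate numbers gave no pairing, since deviations from the genotype means correlated at 0.0122 between arrays of the same number, across genes. With the replicate block 7420 genes were called in place of 7213, and the counts of members were the same. Without single arrays between 6566 and 6605 genes were called. Zbtb16 lay near 35.1 and its wild-type arrays differed widely, which limits what can be said of it.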
